A study of Homo sapiens with 18 samples.

Results

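FAS, TNFRSF10A, TNFRSF10B and RELT, 4 receptor genes of the tumour necrosis factor (TNF) family, were followed through 6 treatment groups of SJSA-1 cells. They were chosen by name as 4 rows of a deposited table of 3074 genes, and all 4 were tested. SJSA-1 is a human osteosarcoma cell line that carries an amplified MDM2 gene. FAS, TNFRSF10A and TNFRSF10B are known as death receptors. RELT belongs to the same receptor family but has no death domain, so that name does not describe it.

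Death receptors sit in the cell membrane, and a ligand that joins several of them recruits the adaptor FADD and caspase 8, which starts apoptosis from outside the mitochondria. FAS (CD95) binds FASLG, while TNFRSF10A (DR4) and TNFRSF10B (DR5) bind TRAIL, the product of TNFSF10. FAS and TNFRSF10B are textbook targets of the transcription factor p53. MDM2 marks p53 for degradation and also blocks it directly, so that compounds directed at MDM2 raise p53.

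Cells received vehicle (DMSO) or neocarzinostatin (NCS), a drug that breaks DNA, at 1 µg/mL for 72 h. For the last 24 h, after 48 h of that first treatment, DMSO, MI-1061 or MD-224 was added, each compound at 1 µM. MI-1061 occupies the site on MDM2 that binds p53, and MD-224 joins a ligand of that kind to a ligand of the ubiquitin ligase component cereblon, which leads to degradation of MDM2. The 6 groups were DMSO, MI-1061, MD-224, NCS, NCS and MI-1061, and NCS and MD-224, with 3 libraries of poly(A) RNA each. All are 1 cell line, and the labels do not say whether replicates were separate cultures, so p-values measure the spread between these libraries, which may be technical.

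The values are read counts that were each divided by the size factor of their library, and are called normalized counts here. The listed genes held 4490870 to 21816350 reads per library, which is not the full depth. No gene of the table was under 1.75-fold higher in the NCS and MI-1061 mean than in the DMSO mean, so a member's rise between those groups was not tested. The rule by which genes were listed is not given in the sources used here. Of the markers of other cell types, 3 of 7 haematopoietic, 1 of 3 endothelial and none of the 4 epithelial genes were listed, beside 3 of 8 osteoblast genes. The endothelial gene VWF had 75.0 ± 25.1 normalized counts (SD, n = 3) with DMSO and 2115 ± 535 with MI-1061. It had 196 ± 65.5 with NCS and MI-1061. Of the haematopoietic genes, LAPTM5 had 92.1 ± 49.7 with DMSO and 1762 ± 274 with MI-1061, and ITGAM had 19.7 ± 14.8 and 306 ± 78.0. CD68 had 620 ± 351 and 661 ± 203. Of the osteoblast genes, COL1A2 had 14390 ± 5185 with DMSO and 9783 ± 4095 with MI-1061. SPARC had 63887 ± 6584 and 97564 ± 24067, and SPP1 had 765 ± 531 and 1713 ± 919. The part of these genes in the results was not tested. In bulk RNA, fewer cells of a type and less RNA per cell cannot be told apart.

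Windows of 300 bases around RefSeq gene starts (250 before, 50 after) were searched on both strands for the 10-base p53 response element unit, known as the p53 decamer. FAS and RELT were searched with ACTA2 and genes of the pathway lists described further on, 26 genes in all. A match was found in 5 of those 26 genes, in 9.79% of the 2115 listed genes with a window and in 8.06% of all 27305 genes with a window. Counted by window instead of by gene, it was 6.63% of all 35116 windows. The matches below are shown because FAS holds one at 1 of its 3 starts, and because AEN, BAK1 and TNFSF15, which belong to the pathway lists, hold the others beside ACTA2. Each is printed 5′ to 3′ on the gene's own strand with the decamer in capitals.
FAS, chr10:88991299-88991328, plus strand: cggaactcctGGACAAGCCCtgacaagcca
AEN, chr15:88621296-88621325, plus strand: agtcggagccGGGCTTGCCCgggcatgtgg
BAK1, chr6:33580330-33580359, minus strand: aaagtgggcgGGACATGCTCctgggcctgg
TNFSF15, chr9:114792686-114792715, minus strand: caggctagatAAACTTGCCCaaagccatgg
The FAS match begins 122 bases before that start (position -122). Of the GENCODE v29 transcripts of FAS, 13 span it and 2 have an exon there. It also lies in the window of ACTA2, a smooth muscle actin gene on the opposite strand. The 2 RELT windows held 0 matches. A match is a description of letters, and binding was not measured.

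FAS lies on chromosome 10 (88964050 to 89017059, plus strand, RefSeq, GRCh38.p14), and RELT on chromosome 11 (73376399 to 73397474, plus strand). TNFRSF10A (23190452 to 23225102) and TNFRSF10B (23020133 to 23069031) lie on chromosome 8, both on the minus strand.

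FAS, the receptor for FASLG, had 995, 954 and 883 normalized counts in the 3 DMSO libraries and 7748, 9649 and 10521 with MI-1061. With MD-224 it had 2520, 2270 and 2233. The DMSO libraries were the lowest, and those with MD-224 stood between. After NCS alone the FAS counts were 1612, 1395 and 1416. They were 12496, 11640 and 12082 with NCS and MI-1061, and 5223, 4023 and 3694 with NCS and MD-224. In the plot of values by library, the order of the FAS groups was the same after NCS as without it, with MI-1061 highest and vehicle lowest.

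FAS rose with each single treatment. Against DMSO the log2 change in limma was 0.64 ± 0.14 (SE) with NCS (adjusted p = 0.000901), 3.29 ± 0.14 with MI-1061 (adjusted p = 9.51e-12) and 1.31 ± 0.14 with MD-224 (adjusted p = 2.34e-06). These are 1.56-fold, 9.78-fold and 2.48-fold changes. In NCS-treated cells FAS rose 8.20-fold with MI-1061 (log2 3.04, limma adjusted p = 3.83e-11) and 2.90-fold with MD-224 (log2 1.54, limma adjusted p = 1.87e-06). With MD-224 present, NCS raised FAS by 0.87 (log2, limma adjusted p = 0.000132). With MI-1061 present the NCS difference was 0.39 (limma adjusted p = 0.0185). That call was lost without MI-1061 replicate 1 (adjusted p = 0.109), without NCS and MI-1061 replicate 1 (0.0560) and without any 1 replicate number (0.0519 to 0.0989).

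TNFRSF10B, which encodes the TRAIL receptor DR5, was the most abundant member. Its normalized counts were 12211, 14248 and 12378 in the DMSO libraries. MI-1061 gave 64669, 58459 and 76021, and MD-224 gave 30777, 26269 and 29839. As for FAS, MI-1061 was highest and DMSO lowest. After NCS they were 20240, 17701 and 20195 with vehicle, 73798, 62114 and 68351 with MI-1061, and 41949, 30266 and 35613 with MD-224. The libraries with MI-1061 covered overlapping ranges with and without NCS.

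TNFRSF10B rose with NCS (log2 0.58 ± 0.13, limma adjusted p = 0.00125), 5.11-fold with MI-1061 (2.35 ± 0.13, adjusted p = 1.44e-10) and 2.24-fold with MD-224 (1.16 ± 0.13, adjusted p = 3.84e-06). The NCS call was lost without replicate 3 of every group (adjusted p = 0.0617). In NCS-treated cells it rose 3.51-fold with MI-1061 (log2 1.81, limma adjusted p = 2.16e-09) and 1.84-fold with MD-224 (log2 0.88, limma adjusted p = 0.000164). With MI-1061 present, the NCS difference was 0.04 on the log2 scale, with a 95% interval of -0.23 to 0.31 (limma adjusted p = 0.787). With MD-224 present it was 0.30, with an interval of 0.03 to 0.57 (limma adjusted p = 0.0695). In that comparison the replicate numbers paired the libraries, and with the replicate block the adjusted p was 0.0274. It was 0.0209 when NCS and MD-224 replicate 2 was dropped, and 0.0410 when replicate 2 was dropped from every group.

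TNFRSF10A, which encodes the second TRAIL receptor DR4, was close to the detection limit with DMSO. Its normalized counts there were 2.19, 0.961 and 3.07, from 2, 1 and 3 reads. With MI-1061 they were 467, 301 and 407 (363, 251 and 265 reads), and with MD-224 they were 8.03, 2.58 and 11.5 (7, 4 and 11 reads). MI-1061 thus stood far above the other groups without NCS, while MD-224 and DMSO libraries overlapped. After NCS the normalized counts were 0.981, 6.32 and 10.3 with vehicle, 98.8, 32.4 and 69.3 with MI-1061, and 13.7, 11.1 and 15.2 with MD-224. The combination with MI-1061 stood higher than any other library with NCS and lower than all 3 with MI-1061 alone.

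Pooled over the libraries, the reads of TNFRSF10A gave a rate 190-fold higher with MI-1061 than with DMSO (879 against 6 reads, exact 95% interval 86.9 to 519, counting error only). The log2 change in limma was 7.04 ± 0.59 (adjusted p = 1.67e-08), the 7th largest of 3073 genes, and 5.80 with a pseudocount of 5. After NCS the change with MI-1061 was 3.49 ± 0.59 (limma adjusted p = 5.29e-05). It was 2.71 with a pseudocount of 5, 2.76 without NCS replicate 1, and 2.41 or 4.15 when replicate 1 or 2 was dropped from every group. With MD-224 against DMSO the reads gave a ratio of 3.18 (22 against 6 reads, exact 95% counting interval 1.25 to 9.59), and limma 1.33 (adjusted p = 0.0798). That adjusted p was 0.0453 with the replicate block, where the numbers paired the libraries, and 0.0272 without MD-224 replicate 2. With NCS against DMSO the change was 0.90 (limma adjusted p = 0.207), and 1.63 without NCS replicate 1 (adjusted p = 0.0235). With MD-224 after NCS it was 1.38 (95% interval 0.13 to 2.63, limma adjusted p = 0.130), and it was 0.65 without NCS replicate 1, or 0.62 when replicate 1 was dropped from every group. With MI-1061 present, NCS went with a lower level of TNFRSF10A (log2 -2.65 ± 0.59, limma adjusted p = 0.000845).

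RELT, a receptor with no death domain that is known to engage TRAF1, followed another order. Its normalized counts were 1091, 460 and 626 in the DMSO libraries. MI-1061 gave 970, 944 and 996, and MD-224 gave 251, 241 and 166. The DMSO libraries were the most scattered and spanned those with MI-1061, while all 3 with MD-224 lay below them. After NCS they were 635, 479 and 404 with vehicle, 1658, 1612 and 1499 with MI-1061, and 660, 464 and 611 with MD-224. NCS and MI-1061 together gave the 3 highest RELT values of the 18 libraries. Every listed gene has a higher mean in that group than with DMSO. The way genes were listed may thus bear on this rank and on comparisons that use that group, which was not tested.

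RELT fell with MD-224 to 0.319-fold of DMSO (log2 -1.65 ± 0.26, limma adjusted p = 0.000101), and 3068th of 3073 genes when ordered from the largest rise. In NCS-treated cells MD-224 against vehicle gave 0.20 (95% interval -0.34 to 0.74, limma adjusted p = 0.626). MI-1061 raised RELT 3.19-fold in NCS-treated cells (log2 1.67 ± 0.26, limma adjusted p = 1.78e-05), where 70.5% of the tested genes were called higher. Without NCS the MI-1061 difference was 0.51 (limma adjusted p = 0.0824), with an adjusted p of 0.0352 under the replicate block. Without DMSO replicate 1, the highest RELT library of that group, it was 0.85 (adjusted p = 0.00302), as it was when replicate 1 was dropped from every group (adjusted p = 0.00812). NCS against DMSO gave -0.45 (limma adjusted p = 0.143), and -0.73 without DMSO replicate 2 (adjusted p = 0.0227). NCS raised RELT by 1.40 with MD-224 present (limma adjusted p = 0.000484), a call lost without replicate 3 of every group (adjusted p = 0.0512). With MI-1061 present the NCS difference was 0.71 (limma adjusted p = 0.0219), lost without NCS and MI-1061 replicate 1 or 2 (adjusted p = 0.0572 and 0.0522) or when replicate 2 or 3 was dropped from every group (0.0621 and 0.0955).

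**Figure D1:**
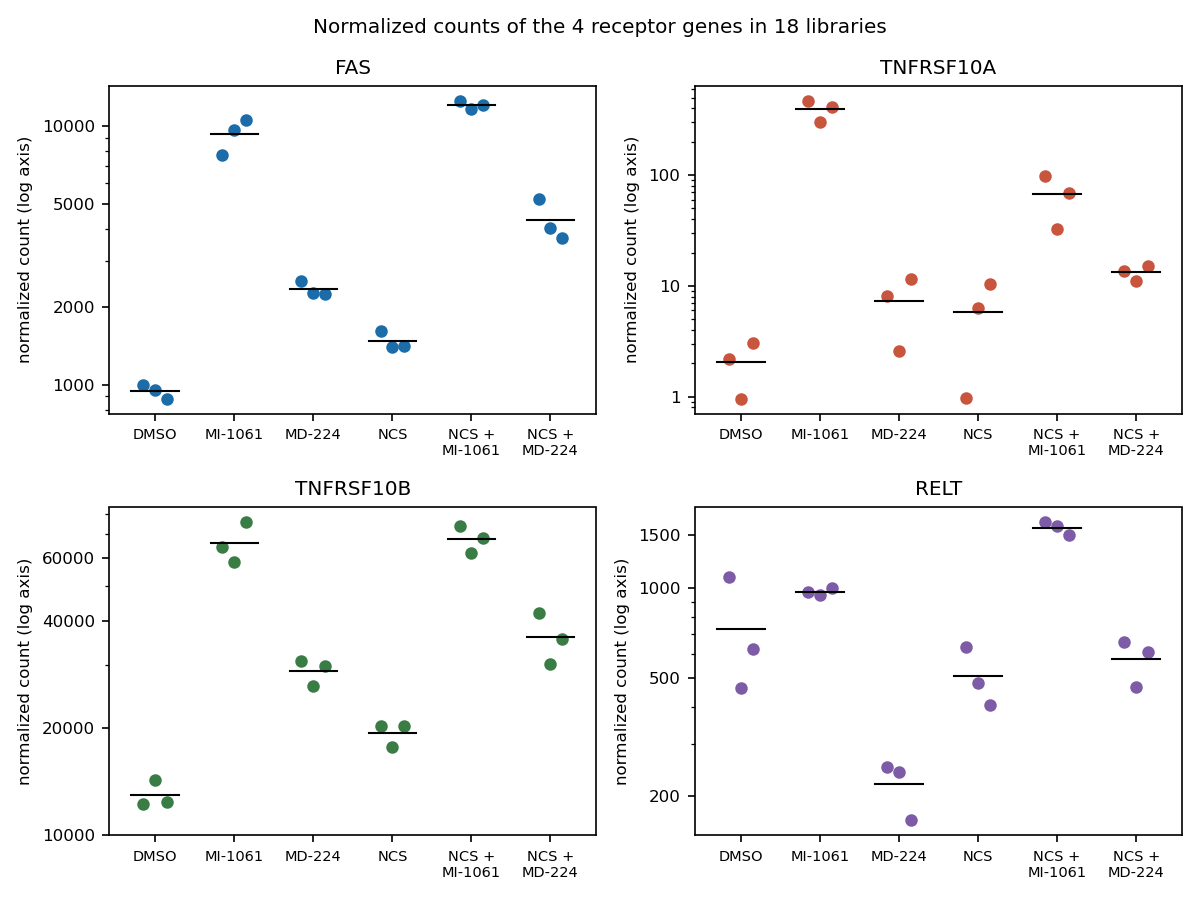
Normalized counts (log axes) of FAS, TNFRSF10A, TNFRSF10B and RELT in the 6 groups, with 1 point per library and a line at the group mean. FAS and TNFRSF10B are highest in the groups with MI-1061, TNFRSF10A stands at 301 to 467 only with MI-1061 alone, and RELT is lowest with MD-224 alone (166 to 251).

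The members' calls were read against those of all 3073 tested genes, since every gene of the table has a higher mean with NCS and MI-1061 than with DMSO. NCS raised 2 of the 4 members (FAS and TNFRSF10B), where 54% of the tested genes were called higher and 1.3% lower. MI-1061 raised 3 of 4, all but RELT, where 67.6% were called higher and 4.46% lower. MD-224 raised 2 of 4 (FAS and TNFRSF10B) and lowered 1 (RELT), where 39.9% were called higher and 2.8% lower. These counts are from the fit without the replicate block. For both compounds against DMSO the replicate numbers paired the libraries. With the block RELT was also called higher with MI-1061 (limma adjusted p = 0.0352), and TNFRSF10A with MD-224 (0.0453). After NCS, MI-1061 raised 4 of 4 (70.5% of the tested genes were called higher and 0.748% lower). MD-224 after NCS raised 2 of 4, again FAS and TNFRSF10B (15.1% higher). That background of 465 genes was 755 with the replicate block, where the numbers paired the libraries. It was 298, 287 or 283 without NCS replicate 1, 2 or 3, 186 without NCS and MD-224 replicate 1, and 176 or 163 when replicate 1 or 3 was dropped from every group.

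The members' median log2 change was 0.61 with NCS, beside 0.66 over all tested genes. It was 2.82 beside 1.00 with MI-1061, 1.24 beside 0.48 with MD-224, 2.42 beside 0.97 with MI-1061 after NCS, and 1.13 beside 0.30 with MD-224 after NCS. Rescaling the listed genes by the trimmed mean of M values (TMM) moves the median of all tested genes to 0.06 for NCS, 0.01 for MI-1061 and -0.01 for MD-224, and to -0.02 for either compound after NCS. On that scale, which sets a member against the typical listed gene, FAS was at 2.30 and TNFRSF10B at 1.36 with MI-1061, and at 0.81 and 0.67 with MD-224, all still called by limma. TNFRSF10A was at 6.28 with MI-1061 and still called. RELT was at -2.14 with MD-224 and 0.68 with MI-1061 after NCS, both called (limma adjusted p = 1.85e-05 and 0.0359). The NCS changes of FAS and TNFRSF10B went to 0.03 and -0.03 and lost their calls (limma adjusted p = 0.886 and 0.881). RELT with NCS went to -1.06 and was called lower (limma adjusted p = 0.00397), and RELT with MI-1061 went to -0.48 (adjusted p = 0.105). Over all tested genes on the TMM scale, 14.8% were called higher and 15.2% lower with NCS, 30.7% and 30% with MI-1061, and 10.6% and 11.6% with MD-224. In NCS-treated cells 23.9% were called higher and 19.3% lower with MI-1061, and 3.77% and 0.195% with MD-224.

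**Figure D2:**
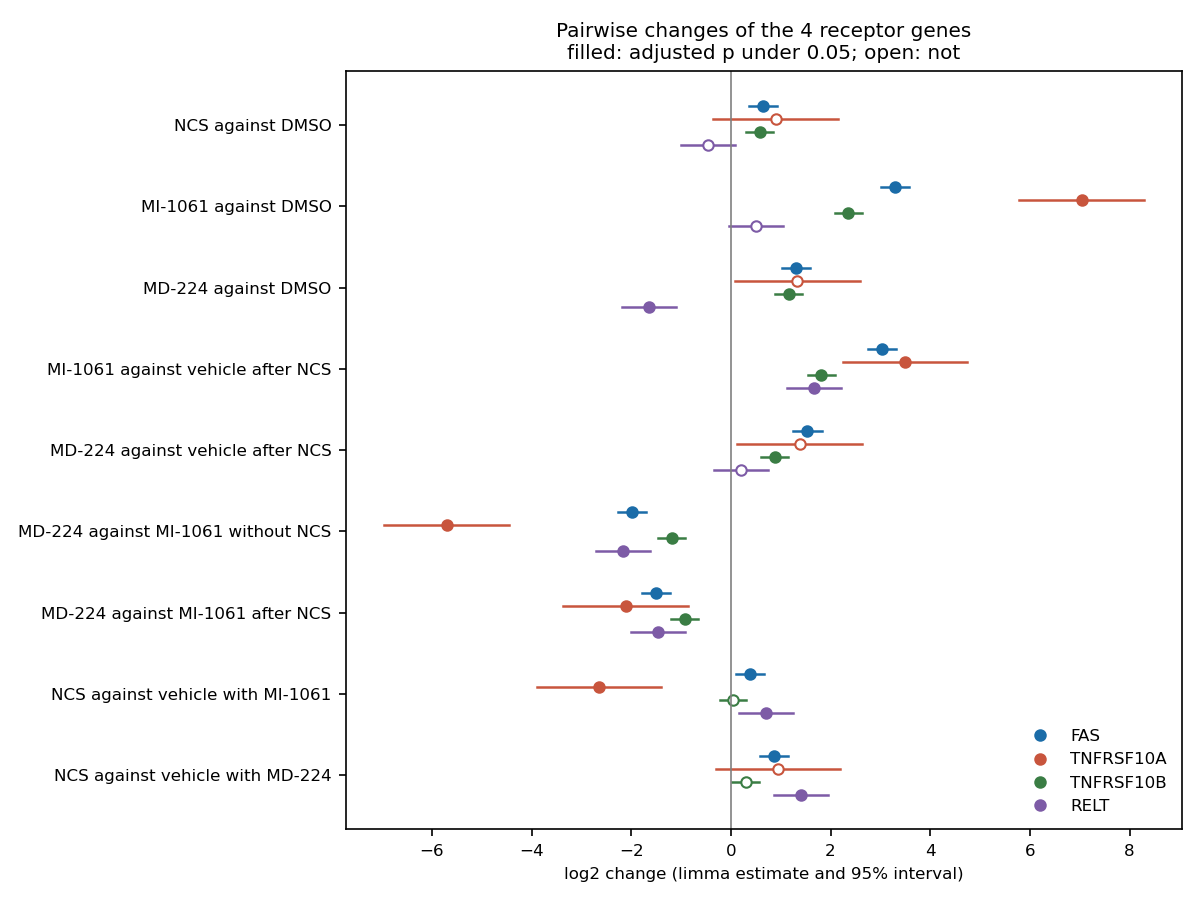
Log2 change (x axis) of the 4 members in 9 pairwise comparisons (y axis), as limma estimates with 95% intervals, filled where the adjusted p was under 0.05 and open where it was not. TNFRSF10A with MI-1061 against DMSO is the largest change (7.04), and all 4 members lie below 0 for MD-224 against MI-1061, with and without NCS.

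At the same dose and time, all 4 members were lower with MD-224 than with MI-1061. Without NCS the log2 difference was -1.98 for FAS (limma adjusted p = 1.06e-08), -1.19 for TNFRSF10B (7.25e-07), -5.71 for TNFRSF10A (4.92e-07) and -2.16 for RELT (2.02e-06). In that comparison 49.8% of the tested genes were called lower and 12.4% higher. After NCS the differences were -1.50 for FAS (limma adjusted p = 2.59e-07), -0.93 for TNFRSF10B (1.22e-05), -2.11 for TNFRSF10A (0.00610) and -1.47 for RELT (0.000127), where 54.7% of the tested genes were called lower and 0.748% higher. The TNFRSF10A call after NCS was lost without replicate 3 of every group (adjusted p = 0.0528). Under TMM scaling the TNFRSF10A and TNFRSF10B differences after NCS were -1.46 and -0.26 and lost their calls (limma adjusted p = 0.0868 and 0.143). The comparison of MD-224 with MI-1061 without NCS uses neither DMSO nor the group with NCS and MI-1061, between which every listed gene differs. The way genes were listed may still bear on it, which was not tested. Its median log2 difference over all tested genes was -0.58.

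On the scale of normalized counts, the rise of the FAS mean above DMSO with MD-224 was 16.7% of that with MI-1061, and after NCS 26.8%. For TNFRSF10B the mean rose by 16016 with MD-224 and by 53437 with MI-1061 without NCS, and after NCS the MD-224 rise was 34.0% of the other. For TNFRSF10A it was 1.36% and 12.3%. FAS and TNFRSF10B thus kept a measurable rise with the degrader, and the TNFRSF10A reads were at 0.0168 of their MI-1061 rate (22 against 879 reads, exact 95% counting interval 0.0104 to 0.0255). RELT without NCS had a mean of 970 ± 26.1 (SD, n = 3) with MI-1061 and 726 ± 327 with DMSO, a difference called only with the replicate block or without replicate 1. Its mean was 220 ± 46.4 with MD-224, a called difference from DMSO.

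NCS with MI-1061 present raised 2 of 4 members (FAS and RELT) and lowered 1 (TNFRSF10A), where 55.9% of the tested genes were called higher and 10.1% lower. Under TMM scaling FAS went to -0.23 (limma adjusted p = 0.114), RELT to 0.10 (0.764) and TNFRSF10B to -0.57, which was then called lower (0.00154). TNFRSF10A was at -3.24 on that scale. NCS with MD-224 present raised 2 of 4 (FAS and RELT), where 39% were called higher and 0.586% lower, and TMM scaling kept both calls. With the replicate block, where the numbers paired the libraries, TNFRSF10B was called higher there too (limma adjusted p = 0.0274). NCS and MD-224 together against DMSO raised 3 of 4, where 76.1% were called higher and 0.423% lower: FAS by 2.18, TNFRSF10B by 1.46 and TNFRSF10A by 2.28 (limma adjusted p = 1.86e-09, 6.25e-08 and 0.00258). RELT was at -0.25 there (adjusted p = 0.375), and at 0.09 without DMSO replicate 1. Under TMM scaling TNFRSF10A was at 1.58 (adjusted p = 0.0566) and RELT at -1.19 (adjusted p = 0.00142). With a pseudocount of 5 TNFRSF10A was at 1.38 and remained called.

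With NCS and MI-1061 together, mean counts were 12.8-fold those of DMSO for FAS, 5.26-fold for TNFRSF10B and 2.19-fold for RELT. For TNFRSF10A, with 6 DMSO reads, the read rate was 30.1-fold (exact 95% counting interval 13.6 to 83.2), where the reads of the 3 libraries with both agents rest on an inferred value of 1 read. These folds are descriptions without a test.

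The responses to a compound with and without NCS were then compared directly. For MI-1061, the response after NCS minus that without NCS was -3.54 ± 0.84 (log2, SE) for TNFRSF10A (limma adjusted p = 0.00278), -0.54 ± 0.18 for TNFRSF10B (0.0222) and 1.16 ± 0.36 for RELT (0.0153). In this interaction 20.8% of the tested genes were called lower and 23.5% higher. FAS was at -0.25, with a 95% interval of -0.66 to 0.15 (limma adjusted p = 0.299). Thus 3 of 4 members were called, in both directions. This interaction uses DMSO and the group with NCS and MI-1061, between which every listed gene differs. VWF, a marker of another cell type, was also lower with NCS and MI-1061 than with MI-1061 alone (196 ± 65.5 against 2115 ± 535 normalized counts, SD, n = 3). The haematopoietic genes did not all go that way. LAPTM5 was at 1402 ± 34.9 against 1762 ± 274, ITGAM at 408 ± 64.6 against 306 ± 78.0, and CD68 at 3104 ± 150 against 661 ± 203. The part of these markers in the result was not tested. All 3 calls were lost without replicate 3 of every group (adjusted p = 0.0521 for TNFRSF10A, 0.332 for TNFRSF10B and 0.132 for RELT), where 649 of the tested genes were called in place of 721 higher and 639 lower. The TNFRSF10B call was also lost without MI-1061 replicate 3, NCS replicate 1 or 3, NCS and MI-1061 replicate 2, or replicate 1 of every group (adjusted p = 0.0510 to 0.0688).

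For MD-224 the same difference was 1.85 ± 0.36 for RELT (limma adjusted p = 0.00537), the only called member, where 4.07% of the tested genes were called higher and 7.19% lower. It was lost without replicate 3 of every group (adjusted p = 0.255), where 4 of the tested genes were called in place of 125 higher and 221 lower. FAS was at 0.23 (95% interval -0.18 to 0.63), TNFRSF10B at -0.28 (-0.66 to 0.10) and TNFRSF10A at 0.05 (-1.72 to 1.82). The NCS response with MD-224 minus that with MI-1061 was 3.59 ± 0.84 for TNFRSF10A (limma adjusted p = 0.00298), with 14.2% of the tested genes called higher and 24.8% lower. The TNFRSF10A call held under every alternative run, with values of 2.92 to 3.97 when libraries were left out. For FAS it was 0.48 (adjusted p = 0.0560), for RELT 0.69 (0.143) and for TNFRSF10B 0.26 (0.269). FAS was called in this interaction under TMM scaling (0.65, adjusted p = 0.00629). It was also called without MI-1061 replicate 1 (0.0153), MD-224 replicate 1 (0.0487), NCS and MD-224 replicate 3 (0.0289) or replicate 1 of every group (0.0253).

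**Figure D3:**
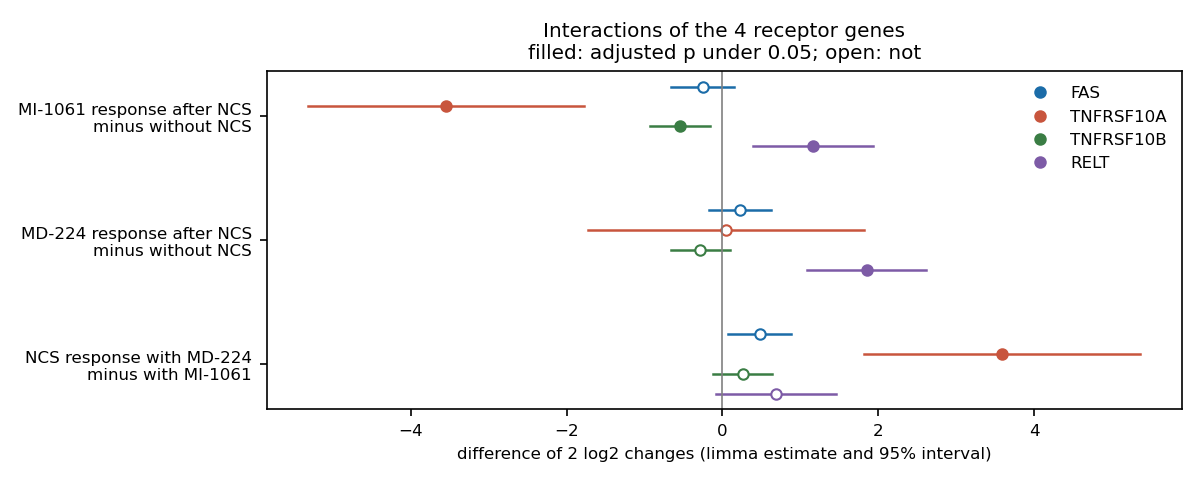
Differences of 2 log2 changes (x axis) for the 4 members in 3 interactions (y axis), as limma estimates with 95% intervals, filled where the adjusted p was under 0.05. TNFRSF10A lies at -3.54 for MI-1061 and near 0 (0.05) for MD-224, while RELT lies above 0 for both compounds (1.16 and 1.85).

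Plain ratios of 2 members within a library do not depend on the scaling between libraries. The tests used the log2 ratio of (normalized count + 1), which does depend on it where TNFRSF10A has few reads. The 6 pairs of members gave 60 exact two-sided permutation tests over the 10 pairwise comparisons, in which 3 against 3 libraries cannot go below p = 0.1, and the smallest adjusted p was 0.162. The ratio of TNFRSF10B to FAS counts ranged over 12.3 to 14.9 (DMSO), 12.6 to 14.3 (NCS) and 11.6 to 13.4 (MD-224), which overlap. It was lower with MI-1061 (6.06 to 8.35), with NCS and MI-1061 (5.34 to 5.91) and with NCS and MD-224 (7.52 to 9.64), none of which overlap DMSO. FAS therefore gained on TNFRSF10B in those groups. The ratio of FAS to RELT was 0.912 to 2.07 with DMSO, 2.54 to 3.50 with NCS, 7.99 to 10.6 with MI-1061 and 9.40 to 13.4 with MD-224. The ranges of the 2 compounds overlap here, although both genes were lower with MD-224 than with MI-1061. The ratio of TNFRSF10A to TNFRSF10B was 0.00515 to 0.00722 with MI-1061 and 0.000522 to 0.00134 with NCS and MI-1061, which do not overlap.

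**Figure D4:**
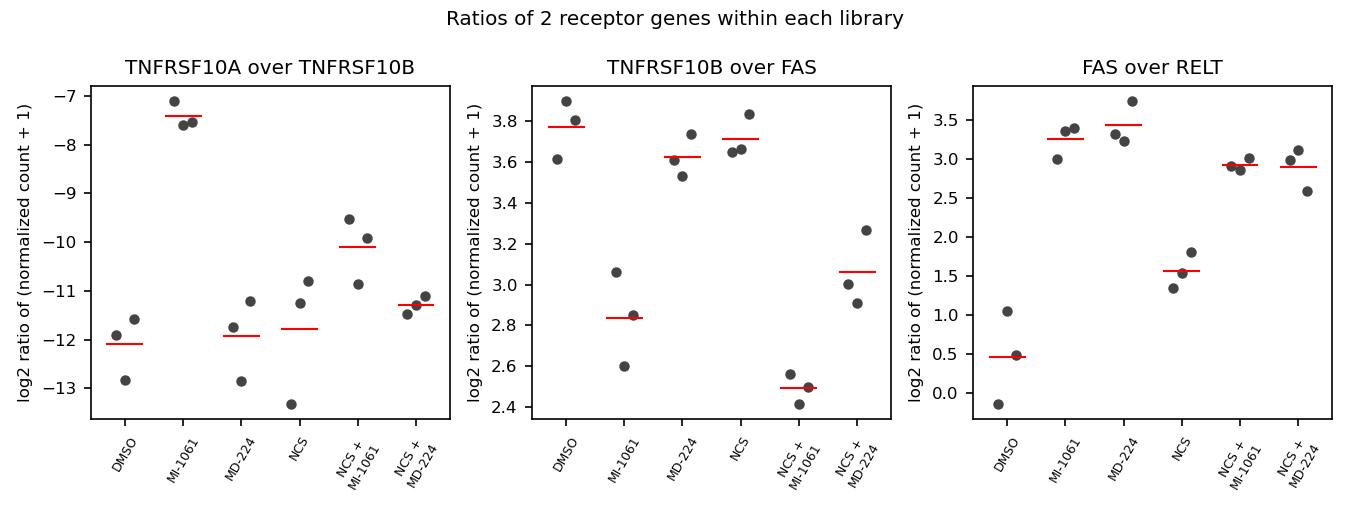
Log2 ratio of (normalized count + 1) of 2 members in each of 18 libraries (y axes) by group (x axes), with 1 point per library and a line at the group mean. TNFRSF10A gains on TNFRSF10B with MI-1061, TNFRSF10B loses against FAS in both groups with MI-1061 (5.34 to 8.35 as plain ratios), and FAS gains on RELT in every treated group.

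Levels of different genes were compared per kb of exon (union of GENCODE v29 exons: 5158 bases for TNFRSF10B, 4253 for FAS, 6322 for RELT and 2951 for TNFRSF10A). With DMSO the order was TNFRSF10B (2510 ± 219 normalized counts per kb, SD, n = 3), FAS (222 ± 13.3), RELT (115 ± 51.7) and TNFRSF10A (0.702 ± 0.359). The order of the means was the same in all 6 groups. With MI-1061 the neighbours RELT (153 ± 4.13) and TNFRSF10A (133 ± 28.5) did not differ beyond their spread. Per kb, the TNFRSF10B mean was 11.3 times that of FAS with DMSO, 5.88 times with MI-1061 and 4.65 times with NCS and MI-1061.

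Over the 18 libraries, Pearson's r of log2(value + 1) was 0.984 between FAS and TNFRSF10B, 0.855 between FAS and TNFRSF10A and 0.877 between TNFRSF10A and TNFRSF10B. RELT had r of 0.491 to 0.591 with the other members. These libraries share groups and scaling, so r is a description. The genes most like FAS were RRM2B (r = 0.994), which encodes a subunit of ribonucleotide reductase, GPC1 (0.992) and BCL2L1 (0.991). Those most like TNFRSF10B were FAS itself (0.984), PVT1 (0.984) and PLXNB2 (0.981). TNFRSF10A was followed most closely by ARHGAP5-AS1 (0.963), EXOC8 (0.953) and PSMD3 (0.952). RELT was followed by TCF15 (0.957), the AP-1 subunit gene FOSL1 (0.9499) and SMTN (0.935).

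Other genes of the pathway were taken from 4 lists by name, of which the table holds 3 of 18 ligands, 7 of 25 other TNF receptor family genes, 7 of 23 receptor-proximal genes and 11 of 22 mitochondrial or executioner genes. FASLG and TNFSF10, the ligands of the death receptors, are not among the listed genes and were not analysed here. Among ligands, TNFSF9 (4-1BBL), TNFSF4 (OX40L) and TNFSF15 (TL1A) all rose with MI-1061 (3 of 3, or 2 of 3 under TMM scaling). Of all tested genes 67.6% were called higher there, and 30.7% under TMM scaling. With NCS 3 of 3 rose under both (54% and 14.8% of all). The TNFSF4 call with NCS was lost when replicate 2 was dropped from every group (limma adjusted p = 0.0744). TNFSF4 had 5.42 ± 4.25 normalized counts (SD, n = 3) with DMSO and 356 ± 139 with MI-1061, a log2 change of 5.91 (limma adjusted p = 1.24e-07). TNFSF9 rose by 3.08 with MI-1061 and 1.46 with MD-224 (limma adjusted p = 4.14e-10 and 1.66e-05). Its interaction of NCS and MI-1061 was -1.75 (limma adjusted p = 6.98e-05), in the direction of TNFRSF10A and TNFRSF10B.

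Among the other receptors, 4 of 7 rose with MI-1061 (67.6% of all tested genes): TNFRSF10D, EDA2R, EDAR and NGFR. TNFRSF10D is a decoy receptor that binds TRAIL without passing on a death signal. Its mean normalized count was 4692 ± 1816 (SD, n = 3) in the DMSO libraries. MI-1061 gave 43040 ± 10354 and MD-224 gave 14141 ± 5622. Its log2 changes were 3.25 with MI-1061, 1.59 with MD-224 and 1.19 with NCS (limma adjusted p = 2.03e-07, 0.00137 and 0.00739). The NCS call was lost when replicate 3 was dropped from every group (adjusted p = 0.0764) and under TMM scaling (0.58). The MD-224 call was lost without replicate 3 of every group (adjusted p = 0.0501). The MI-1061 response of TNFRSF10D was smaller after NCS, with an interaction of -1.60 (limma adjusted p = 0.0121), lost without replicate 3 of every group (0.136). EDA2R, the receptor for ectodysplasin A2, rose by 2.44 with MI-1061 and 1.49 with MD-224 (limma adjusted p = 1.07e-09 and 3.23e-06). TNFRSF9 (4-1BB) differed from the 4: it rose by 2.33 with NCS (limma adjusted p = 1e-07) and was at -0.20 with MI-1061 (adjusted p = 0.311), where TMM scaling gave a called fall to -1.19.

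NCS raised 5 of the 7 other receptors (2 under TMM scaling), MD-224 4 (2, with 1 lower), MI-1061 after NCS 6 (2, with 1 lower) and MD-224 after NCS 1, EDA2R (1 also under TMM scaling). Of all tested genes 54%, 39.9%, 70.5% and 15.1% were called higher in these comparisons, in that order. Under TMM scaling the shares were 14.8%, 10.6%, 23.9% and 3.77%. The NCS count was 3 without replicate 3 of every group. The MD-224 count was 2 without MD-224 replicate 3, 2 or 1 when replicate 2 or 3 was dropped from every group, and 2 in edgeR and in DESeq2. After NCS the MD-224 count was 2 with the replicate block or without NCS and MD-224 replicate 2. The median of these 7 was 2.44 with MI-1061 and 1.03 with MD-224, beside 1.00 and 0.48 over all tested genes.

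Of the receptor-proximal genes, 7 of 7 rose with MI-1061, but only 1 under TMM scaling, TRAF4 (2.05, and 1.06 under TMM scaling). Of all tested genes 67.6% were called higher there, and 30.7% under TMM scaling. CASP10, an initiator caspase of the same complex as caspase 8, rose by 1.38 (limma adjusted p = 0.000963), and CFLAR, which encodes the caspase 8 inhibitor FLIP, by 0.83 (0.000141). Under TMM scaling they were at 0.39 and -0.16 and lost their calls. MD-224 raised 2 of these 7 (TRAF4 and CASP10), where 39.9% of all tested genes were called higher. Under TMM scaling 0 were higher and 2 lower (10.6% and 11.6% of all). The count of 2 was 1 without DMSO replicate 1, 2 or 3 or MD-224 replicate 1, 0 without MD-224 replicate 2, and 1 in edgeR and in DESeq2. NCS raised 5 of 7 (1 under TMM scaling, and 3 without replicate 3 of every group), MI-1061 after NCS 7 (3, with 1 lower), and MD-224 after NCS 1, TRAF4 (0). The last count was 0 without NCS replicate 1 or 3, or without NCS and MD-224 replicate 1 or 2. The shares of all tested genes called higher were 54% with NCS, 70.5% with MI-1061 after NCS and 15.1% with MD-224 after NCS. Under TMM scaling they were 14.8%, 23.9% and 3.77%. CASP10 had an interaction of NCS and MI-1061 of 1.46 (limma adjusted p = 0.0151), lost without replicate 1 or 3 of every group (0.0584 and 0.105).

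Among mitochondrial and executioner genes, 10 of 11 rose with MI-1061 (67.6% of all tested genes), and 6 under TMM scaling with 2 lower (30.7% and 30% of all). The list includes FAS-AS1, an antisense RNA gene within FAS that encodes no mitochondrial or executioner protein. BBC3, which encodes the BH3-only protein PUMA, rose by 3.56 with MI-1061 and 1.63 with MD-224 (limma adjusted p = 6.03e-09 and 0.000210). BAX rose by 1.40 and 1.05 (limma adjusted p = 1.15e-08 and 3.38e-06), and AEN, an exonuclease gene, by 2.29 with MI-1061 (1.14e-10). MD-224 raised 6 of 11 (39.9% of all tested genes), and 2 under TMM scaling with 4 lower (10.6% and 11.6% of all). It lowered 1, APAF1, by -0.67 (limma adjusted p = 0.0419), where 2.8% of all were called lower. That fall lost its call in edgeR and DESeq2 on recovered reads (adjusted p = 0.0706 and 0.0539) and with only the compared groups (0.129). It was also lost without DMSO replicate 1 (-0.42, adjusted p = 0.199) or 3 (0.111), MD-224 replicate 2 (-0.45, 0.189) or 3 (0.0602), or replicate 1 or 3 of every group (0.0865 and 0.235). NCS raised 5 of 11 (54% of all tested genes), while under TMM scaling 0 were higher and 8 lower (14.8% and 15.2% of all). The count of 5 was 3 without DMSO replicate 2 or NCS replicate 3, and 1 when replicate 2 or 3 was dropped from every group. MI-1061 after NCS raised 11 of 11 (70.5% of all tested genes), and 7 under TMM scaling (23.9% of all). MD-224 after NCS raised 6 (15.1% of all), and 3 without replicate 3 of every group. Under TMM scaling it raised 2 and lowered 1 (3.77% and 0.195% of all). In the interaction of NCS and MI-1061, 4 of the 11 were called higher and 1 lower (23.5% and 20.8% of all tested genes), and under TMM scaling 4 and 2. Of those called higher, APAF1, which forms the apoptosome, was at 1.65 (limma adjusted p = 0.00145). PMAIP1, which encodes NOXA, was at 1.25 (0.00359). Both were opposite in sign to TNFRSF10A and TNFRSF10B, whose sign the gene called lower shared. The APAF1 call was lost when replicate 3 was dropped from every group.

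**Figure D5:**
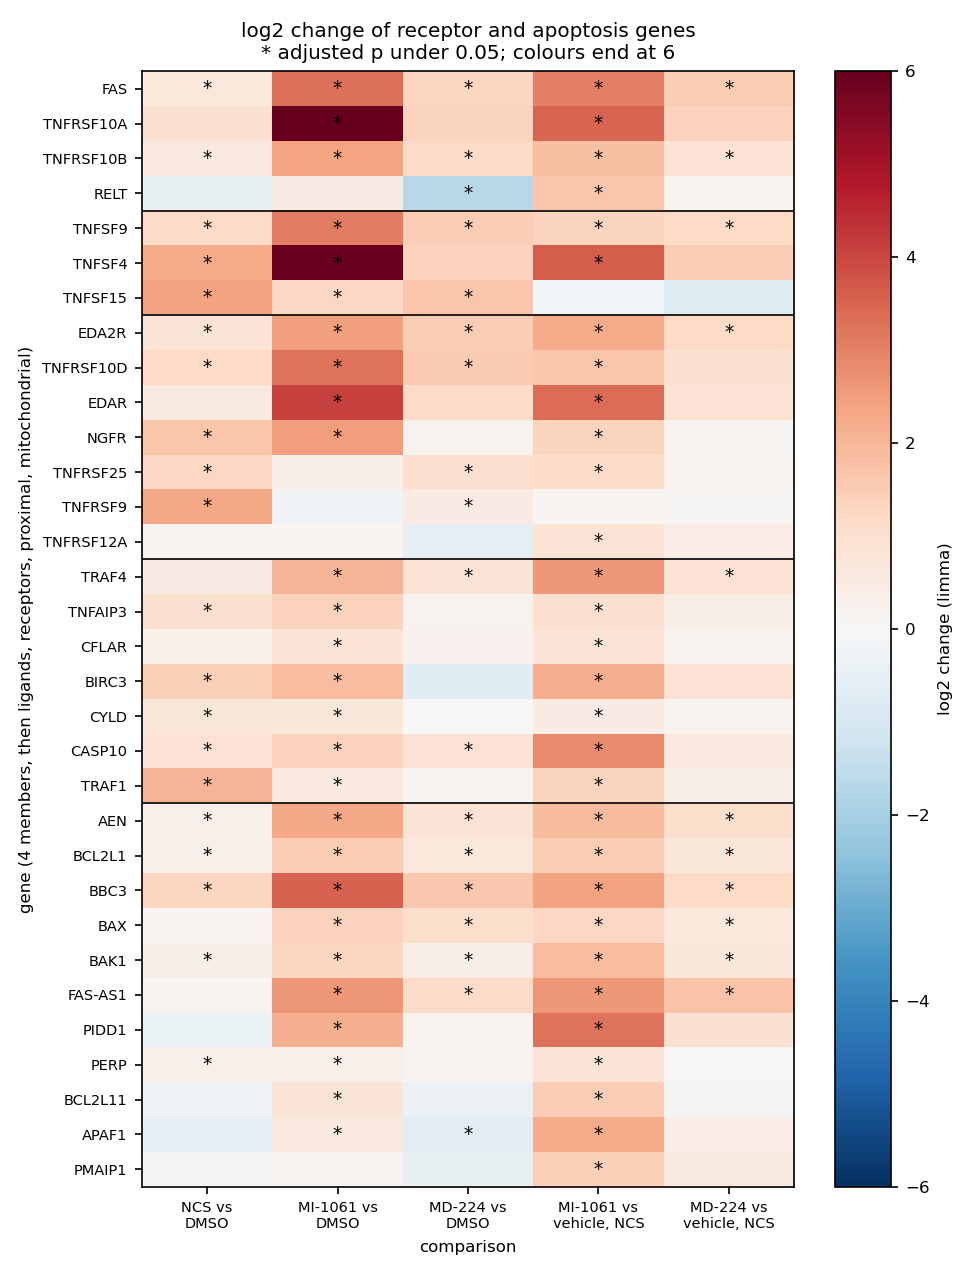
Log2 change (colour, limma) of the 4 members and 28 listed pathway genes (rows, grouped as members, ligands, other receptors, receptor-proximal and mitochondrial or executioner genes) in 5 comparisons (columns), with an asterisk where the adjusted p was under 0.05. The MI-1061 columns hold the strongest rises, with TNFRSF10A (7.04, beyond the colour range) and TNFSF4 (5.91) at the top, and RELT is the only member with a called fall.

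FAS shares 380 exonic bases with ACTA2, which lies on the opposite strand, and FAS-AS1 lies within FAS. Whether reads were counted by strand is not given in the sources used here, so reads of these genes may not be told apart. ACTA2 rose by 2.79 with MI-1061 and by 1.02 with MD-224 (limma adjusted p = 2.68e-08 and 0.00323), the latter lost under TMM scaling (0.53, adjusted p = 0.126). With MI-1061 present, NCS lowered ACTA2 by -1.05 (limma adjusted p = 0.00115), whereas FAS was at 0.39 there. ACTA2 had 932 ± 225 normalized counts (SD, n = 3) with DMSO and 6383 ± 882 with MI-1061, beside 944 ± 56.6 and 9306 ± 1418 for FAS. FAS-AS1 had 6.48 ± 0.304 normalized counts (SD, n = 3) with DMSO and 46.3 ± 15.8 with MI-1061, which is small beside those of FAS. The transcripts of the 4 members shared 0 words of 50 bases with each other, with TNFRSF10C or with TNFRSF10D.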

How the data were processed

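Poly(A) RNA of 18 SJSA-1 libraries was sequenced. The deposited values are normalized counts (unit: signal), and per the submitters' processing notes the tools were DESeq2 2.11.40.6, featureCounts 1.6.3 and HISAT2 2.0.5.2 with build GRCh38, their roles not being given. In 13 libraries the smallest value was 1 read, and every value was a whole multiple of it (100% of values, tolerance 0.01). In the other 5 the step was inferred as a fraction of the smallest value. The read ratio of TNFRSF10A for NCS and MI-1061 uses them, as do the highest number of listed reads (21816350) and the highest size factor. Size factors were 0.651 to 1.65. The inhibitor's digits differ between the treatment protocol and the titles, and the titles were used.

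Values were tested as log2(value + 1) in limma 3.58.1 (R 4.3.3, trended variance, 6 groups in 1 fit) over the 3073 genes with at least 10 in at least 3 libraries (1 below). P-values are two-sided, Benjamini-Hochberg adjusted over these genes, with calls under 0.05, and a fold change is on the log2(value + 1) scale and understates that of low genes. There were 10 pairwise comparisons and 3 interactions, many of which share control libraries. The alternatives were a pseudocount of 5, no filter, a mean of at least 50, TMM scaling (edgeR 4.0.16), only the compared groups, the replicate number as a block, each library or replicate number left out, and edgeR and DESeq2 1.42.0 on recovered reads without NCS. The test was tried on simulated data.

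Members and lists were chosen with earlier results of these data known. A further gene of the lists is not reported here and was left out of their counts. Named were the 4 members, up to 6 genes of each list by smallest p with MI-1061, genes of a list called in an interaction, and the 3 genes with the highest r for each member (mean of at least 50, current symbol). VWF, LAPTM5, ITGAM, CD68, COL1A2, SPARC, SPP1 and the genes behind counts of 5 or fewer were named after their values were seen. Replicate numbers were taken to pair libraries where every correlation of the residuals of like-numbered libraries was over 0.1: this held for MI-1061 and MD-224 against vehicle, with and without NCS, for MD-224 against MI-1061, and for NCS with MD-224 (lowest 0.102 to 0.215), not for the rest. Coordinates and windows are RefSeq's (GRCh38.p14). Figures were drawn with matplotlib 3.10.9 (Python 3.11.15).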

Additional observations from a re-analysis of the deposited data

Results flagged for a closer look

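For 3 members the response to MI-1061 differed between cells with and without NCS, by the test of that difference in limma: TNFRSF10A (-3.54 on the log2 scale), TNFRSF10B (-0.54) and RELT (1.16). TNFRSF10A and TNFRSF10B rose less after NCS, and RELT rose more. The difference uses the group with NCS and MI-1061, where every listed gene has a higher mean than with DMSO. Of all tested genes 23.5% were called higher and 20.8% lower in this interaction. All 3 calls were lost without replicate 3 of every group (limma adjusted p = 0.0521, 0.332 and 0.132). The TNFRSF10A difference was -4.28 without NCS replicate 1, -4.54 without replicate 1 of every group and -2.78 without replicate 2.

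For MD-224 the response of RELT differed by 1.85: it fell without NCS and was near its vehicle level after NCS. That call was lost without replicate 3 of every group (limma adjusted p = 0.255). Of all tested genes 4.07% were called higher and 7.19% lower there. The NCS response of TNFRSF10A differed between the compounds by 3.59 (MD-224 minus MI-1061), where 14.2% were called higher and 24.8% lower. This TNFRSF10A difference rests on low counts, with 22 reads in the 3 libraries with MD-224, and on the group with NCS and MI-1061 at 32.4 to 98.8 normalized counts. No cause was tested for any of the 5.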

How the results depend on the processing

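Of 52 values (4 members in 13 comparisons), all kept their direction and side of the threshold with a pseudocount of 5, no filter, a mean of at least 50 and only the compared groups, as did all 12 in edgeR and in DESeq2 on recovered reads. TMM scaling kept 38 of 52. With NCS it gave 0.027 for FAS, -0.032 for TNFRSF10B and -1.06 for RELT. It gave RELT -0.48 with MI-1061, and -0.13 in the MD-224 comparison after NCS. For MD-224 against MI-1061 after NCS it gave TNFRSF10A -1.46 and TNFRSF10B -0.26. For NCS with MI-1061 it gave FAS -0.23, TNFRSF10B -0.57 and RELT 0.10, and for NCS with MD-224 TNFRSF10B -0.15. For NCS and MD-224 against DMSO it gave TNFRSF10A 1.58 and RELT -1.19, and for the compound interaction FAS 0.65. By its construction TMM removes the shift that most listed genes share.

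The replicate block kept 48 of 52 calls and directions, and gave calls to RELT with MI-1061 (0.51), TNFRSF10A with MD-224 (1.33), TNFRSF10B for NCS with MD-224 (0.30) and FAS in the compound interaction (0.48).

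Leaving out libraries kept 498 of 540 values. With NCS the range was -0.73 to -0.11 for RELT, 0.37 to 1.69 for TNFRSF10A and 0.51 to 0.72 for TNFRSF10B. It was 0.23 to 0.85 for RELT with MI-1061, 0.95 to 1.85 for TNFRSF10A with MD-224, 0.62 to 1.90 for TNFRSF10A with MD-224 after NCS and -2.56 to -1.77 for TNFRSF10A in MD-224 against MI-1061 after NCS. For NCS with MI-1061 it was 0.24 to 0.48 for FAS, -0.046 to 0.14 for TNFRSF10B and 0.68 to 0.77 for RELT. For NCS with MD-224 it was 0.18 to 0.42 for TNFRSF10B and 1.17 to 1.63 for RELT, and for NCS and MD-224 against DMSO -0.53 to 0.091 for RELT. In the interaction of NCS and MI-1061 it was -4.54 to -2.78 for TNFRSF10A, -0.70 to -0.38 for TNFRSF10B and 0.82 to 1.44 for RELT. In that of NCS and MD-224 it was -0.68 to 0.63 for TNFRSF10A and 1.51 to 2.33 for RELT, and for FAS in the compound interaction 0.33 to 0.61. Apart from TMM, whose construction is given above, the cause of these changes was not tested. CFLAR with MI-1061 was at -0.16 under TMM scaling, and TNFRSF9 ranged from -0.39 to 0.0039 when libraries were left out. TNFRSF10A, with 6 reads in DMSO, is limited by counting error.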
